A study of Mus musculus with 6 samples.

Results

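The genes described here encode 10 feedback inhibitors of mitogen-activated protein kinase (MAPK) signalling, and the measurement is the accessibility of the chromatin around them. They are the dual-specificity phosphatases Dusp1, Dusp2, Dusp4, Dusp5, Dusp6 and Dusp10, the Sprouty genes Spry1 and Spry2, and the Sprouty-related genes Spred1 and Spred2. A peak, that is a stretch of open chromatin called by the authors, was counted for a gene where the deposited table names that gene as the nearest one and places the peak at most 100000 bp from its transcription start site (TSS). This rule took 165 of 175929 peaks, of which 40 belonged to Dusp1, 28 to Spred2, 18 to Dusp10, 16 to Dusp4, 15 to Spry1, 14 to Dusp6, 13 to Dusp2, 10 to Dusp5, 7 to Spred1 and 4 to Spry2. The rule used no measured accessibility.

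The assay was ATAC-seq, which tags DNA that a transposase can reach, so that more tags at a site mean more open chromatin. The cells were mouse leukaemia cells driven by AE9a, a shortened AML1/ETO fusion protein, and in both groups they carried 1 floxed allele of Usp18 (Usp18+/f) and UBCER-Cre, a Cre recombinase that is active in all tissues once tamoxifen is given. After transplantation and onset of illness, recipient mice received oil (3 libraries, replicates 1, 2 and 4, Usp18+/f) or tamoxifen (3 libraries, replicates 1, 3 and 4, Usp18+/Δ), and 3 days after injections began GFP+ cells that were lineage-negative and c-Kit+ were taken from the spleen by sorting. Usp18 encodes a protease that removes ISG15 from proteins and restrains type I interferon signalling, and the comparison asks how loss of 1 allele alters accessible chromatin in established leukaemia. No tamoxifen group without the floxed allele was analysed here, so that the drug and the allele's loss cannot be told apart. The mice were young adults. The labels do not say whether each library came from its own mouse, and p-values therefore measure the spread between libraries.

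MAPK phosphatases remove phosphate from the activated kinases ERK, p38 and JNK. Dusp6 acts on ERK in the cytoplasm, Dusp5 on ERK in the nucleus, Dusp1, Dusp2 and Dusp4 on several MAPKs in the nucleus, and Dusp10 mainly on p38 and JNK. Sprouty and Spred proteins act further up, between receptor tyrosine kinases such as c-Kit and the Ras-Raf step, and Spred1 does so together with neurofibromin. Many of these genes are themselves induced by MAPK signalling, which makes them a negative feedback loop, and in myeloid cells they limit growth signals passed on by receptor tyrosine kinases.

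Each library held 57.4 to 74.7 M tags (1 M is 1000000), of which 17.5 to 21.1 M lay in peaks, and the median peak held 45 to 57 tags. Of the 15 peaks at Usp18, none (0) passed an adjusted p of 0.05 (log2 fold changes from -0.23 to 0.32, lowest adjusted p = 0.76), and accessibility there does not test whether the allele was lost. Marker genes of immature myeloid blasts (Kit, Cd34, Mpo, Gata2, Spi1, Myb) had TSS-proximal peaks in 6 of 6 cases. So did 6 of 6 erythroid marker genes, and such peaks therefore do not single out blasts. Tamoxifen replicate 4 stood apart from the other two tamoxifen libraries, and without it the number of peaks with an adjusted p under 0.05 over the whole table was 6529 (3.71%) in place of 2448 (1.39%). Summed normalised tags of 6 T cell marker genes ran from 1512 to 1559 in the oil libraries and from 1851 to 2078 in the tamoxifen libraries, although the sort took lineage-negative cells and Cd3d, Cd4 and Cd8a had no peak within 3000 bp of the TSS. Mature myeloid markers also summed higher after tamoxifen (2865 to 3063 against 2677 to 2769), erythroid markers lower (7100 to 7624 against 7724 to 8038), and B cell markers overlapped (623 to 895 against 735 to 828). Of the 7 mature myeloid genes, 3 had a peak within 3000 bp of the TSS. Sums over those peaks overlapped (198 to 211 after tamoxifen, 197 to 221 after oil). None (0) of the 44 mature myeloid peaks passed an adjusted p of 0.05. Within 3000 bp of a TSS, T cell marker sums were 261 to 303 after oil and 354 to 395 after tamoxifen. Erythroid sums there were 5556 to 5809 after oil and 5154 to 5403 after tamoxifen. Of 34 T cell peaks 3 passed, of 56 erythroid peaks 4, of 106 blast peaks 3 and of 16 B cell peaks none (0), against 1.39% of all peaks. The part of any of these cell types in the results below was not tested. In these bulk samples, fewer cells of a type and less open chromatin per cell cannot be told apart.

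Of the 165 peaks, 5 passed an adjusted p of 0.05 in the DESeq2 fit of all peaks, 1 each at Dusp1, Dusp2, Dusp6, Spry1 and Spred1, and the central 200 bp of each is shown here because the results turn on these 5 elements. The letters are the mm10 reference (GRCm38.p6), read 5′ to 3′ on the + strand and not from the libraries, and capitals mark the 1 match that each window held to a panel of motifs described with the motif counts. The windows are chr17:26514517-26514716, chr2:127328475-127328674, chr10:99268885-99269084, chr3:37675272-37675471 and chr2:117048358-117048557, in the order of the lines.
Dusp1, 6144 bp upstream, GATA letters in capitals: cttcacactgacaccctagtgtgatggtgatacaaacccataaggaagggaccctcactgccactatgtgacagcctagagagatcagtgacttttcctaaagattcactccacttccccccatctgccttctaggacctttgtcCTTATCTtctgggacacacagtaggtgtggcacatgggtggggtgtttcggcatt
Dusp2, 7585 bp upstream, GATA letters in capitals: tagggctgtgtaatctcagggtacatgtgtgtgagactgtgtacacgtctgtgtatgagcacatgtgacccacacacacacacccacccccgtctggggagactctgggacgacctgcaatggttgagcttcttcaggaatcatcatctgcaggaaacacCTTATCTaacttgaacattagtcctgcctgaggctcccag
Dusp6, 5753 bp downstream, RUNX letters in capitals: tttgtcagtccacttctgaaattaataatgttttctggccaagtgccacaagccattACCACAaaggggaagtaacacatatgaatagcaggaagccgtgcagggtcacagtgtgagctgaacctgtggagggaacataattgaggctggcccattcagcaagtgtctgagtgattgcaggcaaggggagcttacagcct
Spry1, 35424 bp downstream, AP-1 letters in capitals: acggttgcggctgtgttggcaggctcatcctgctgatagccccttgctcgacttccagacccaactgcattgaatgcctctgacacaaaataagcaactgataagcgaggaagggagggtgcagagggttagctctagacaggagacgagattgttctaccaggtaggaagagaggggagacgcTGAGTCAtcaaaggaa
Spred1, 72614 bp upstream, STAT letters in capitals: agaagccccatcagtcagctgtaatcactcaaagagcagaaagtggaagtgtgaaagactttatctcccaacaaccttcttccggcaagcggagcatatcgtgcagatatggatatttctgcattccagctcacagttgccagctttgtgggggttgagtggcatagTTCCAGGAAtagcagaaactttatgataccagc

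The promoters of these genes were open to very different degrees, and none (0) of the 10 peaks nearest a TSS passed the test. Levels between genes are compared as normalised tags per kb of peak, where normalised means divided by DESeq2 size factors. After oil the order was Dusp10 (4021 ± 237 tags per kb, SD, n = 3), Dusp5 (3178 ± 161), Dusp1 (2860 ± 222), Dusp2 (2361 ± 8.83), Spred2 (1970 ± 170), Spry1 (1497 ± 143), Spred1 (1220 ± 52.9), Dusp6 (356 ± 112), Dusp4 (168 ± 13.6) and Spry2 (144 ± 25.9). In that order the oil values of Dusp5 and Dusp1 overlapped, as did those of Dusp4 and Spry2, whereas all other neighbours were separate. The order also depends on the width of the called peaks, which ran from 208 bp at Dusp1 to 626 bp at Spred1. In tags per peak after oil, Spred1 (764) lay above Dusp5 (677) and Dusp1 (595). The Dusp4 peak used here lies 443 bp downstream of the TSS, is 484 bp wide and averaged 81.5 tags after oil. Another Dusp4 peak, 445 bp upstream and 237 bp wide, averaged 132 tags, more per kb than the Dusp6 peak. The place of Dusp4 below Dusp6 thus rests on the choice of peak, whereas with either peak it lies below Spred1. The Dusp10 promoter peak was higher per kb than 99.4% of all peaks within 500 bp of a TSS, and the Spry2 peak higher than 12.7%. The authors counted at most 3 tags per position, which caps the highest of these levels.

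**Figure D1:**
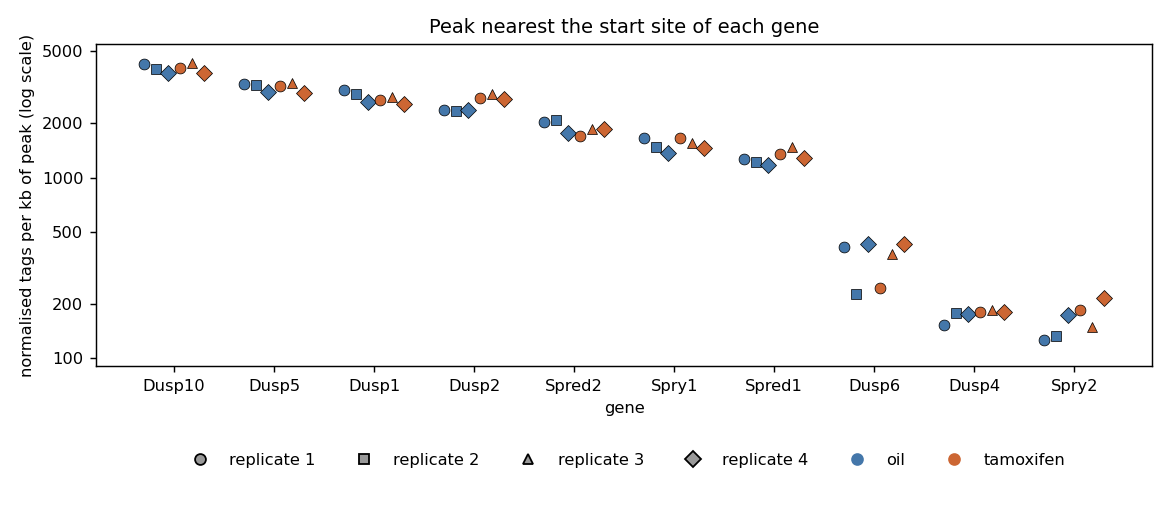
Normalised tags per kb of the peak nearest the TSS (log axis) for each gene, with 1 point per library, oil in blue and tamoxifen in orange, and marker shapes for the replicate number. Dusp10, Dusp5 and Dusp1 lie highest and Dusp6, Dusp4 and Spry2 lowest, and the Dusp2 points of the tamoxifen group lie above those of the oil group.

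At the Dusp2 promoter (peak 100 bp upstream, chr2:127335925-127336193) the oil libraries held 638, 633 and 635 normalised tags and the tamoxifen libraries 747, 782 and 733. The groups did not overlap, but the log2 fold change of tamoxifen over oil, 0.25 ± 0.08 (SE), missed the threshold (adjusted p = 0.13 by DESeq2). It passed in 3 of 14 alternative settings. With edgeR's quasi-likelihood test the adjusted p was 0.025, with proximal peaks fitted on their own 0.0042, and without tamoxifen replicate 4 DESeq2 gave 0.047. The edgeR fit called 5136 of all peaks and the fit without tamoxifen replicate 4 called 6529, in place of 2448. DESeq2 gave 0.27 with size factors from tags in peaks, and 0.42 to 0.73 when any other library was left out. In the latter fits 629 to 1078 of all peaks passed. The Spred1 promoter peak (170 bp upstream) held 798, 761 and 732 tags after oil and 850, 928 and 803 after tamoxifen, again without overlap and with an adjusted p of 0.52. For the other 8 peaks nearest a TSS the adjusted p ran from 0.73 at Spry2 upwards. The Dusp4 peak 445 bp upstream, not among them, held 114, 137 and 144 tags after oil and 182, 150 and 157 after tamoxifen (adjusted p = 0.61 by DESeq2). The 95% interval of the log2 fold change spanned 0 for each of these 8, and was narrow at Dusp10 (-0.14 to 0.17) and wide at Dusp6 (-0.74 to 0.71).

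In the Dusp6 promoter peak, which lies over the first exon of the ERK-specific phosphatase, the libraries of each group differed among themselves by more than the groups did. Oil values were 130, 71.2 and 134 tags and tamoxifen values 77.3, 119 and 135, so that oil replicate 2 and tamoxifen replicate 1 were low.

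Of the 5 peaks that passed, 1 fell and 4 rose. This is 3.03% of the 165 peaks, against 1.39% of all 175929 peaks. By direction, 2.42% of the 165 peaks rose, against 1.22% of all peaks, and 0.606% fell, against 0.167%. With so few peaks, these shares are a description. In this fit over all peaks, none (0) reached the fold over 2 that the study's methods also require, which 0.654% of all peaks did. The study left out peaks near a TSS before its test. With the distal peaks fitted alone, which is nearer to that choice, 1 peak did, the one 6144 bp upstream of Dusp1 (log2 fold change -1.02, adjusted p = 0.0021 by DESeq2), against 0.851% of the distal peaks tested. At an unadjusted p under 0.05 there were 14 of 165 peaks (8.48%, against 9.02% of all peaks). At an adjusted p under 0.05 edgeR called 6 of the 165 peaks, also with none (0) over a fold of 2. It called 5136 of all 175929 peaks, more than the 2448 of DESeq2. All 5 peaks were in the authors' peak lists of both groups.

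Over the 165 peaks the log2 fold changes had a median of 0.09, against 0.00 over all peaks, and 64.2% of them were above 0, against 49.7%. The groups did not overlap and lay higher after tamoxifen in 28 peaks (17%, against 11.9% of all peaks) and lower in 9 (5.45%, against 10%). Against the mean of the oil libraries, the median over the 165 peaks was 0.14 in tamoxifen replicate 1, 0.10 in replicate 3 and 0.02 in replicate 4. The same median was 0.05 in oil replicate 1 and -0.02 in both other oil libraries. Tamoxifen replicate 4 thus lay below oil replicate 1. The peaks were otherwise near the rest of the table in kind. They were distal (over 3000 bp from a TSS) in 73.3% of cases against 69.6%, were in the lists of both groups in 73.3% against 71.4%, and had a median width of 266 bp against 250 bp. They were more often intergenic in the deposited annotation (50.3% against 36.4%).

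**Figure D2:**
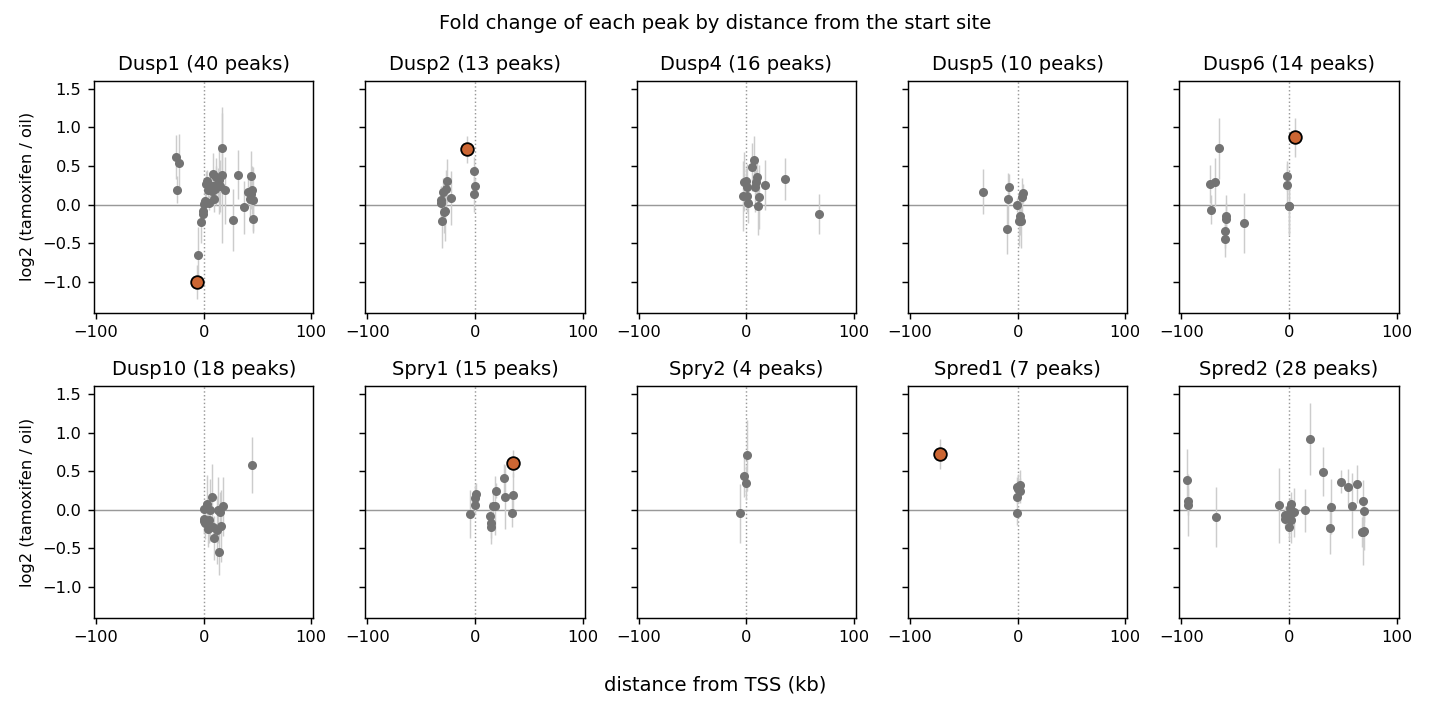
Log2 fold change (tamoxifen over oil) of each of the 165 peaks by distance from the TSS in kb, 1 panel per gene, with the SE as a bar and the 5 peaks with an adjusted p under 0.05 in orange. Most Dusp1 and Dusp4 peaks lie above 0 and most Dusp10 peaks below it, and the passing peaks lie away from the start sites.

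The peak 6144 bp upstream of the Dusp1 TSS (chr17:26514440-26514792) fell. It held 130, 112 and 119 normalised tags in the oil libraries and 53.6, 47.4 and 78.7 in the tamoxifen libraries. Each tamoxifen library lay below each oil library, with replicate 4 nearest to the oil group. Tags fell by 1.00 ± 0.22 (SE) on the log2 scale (adjusted p = 0.0015). In GENCODE this site is an intron of a long form of Dusp1 whose start lies farther upstream, whereas the deposited table, built on the shorter form, calls it intergenic. Dusp1 encodes an immediate early phosphatase of p38, JNK and ERK.

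The adjacent peak, 5687 bp upstream of the Dusp1 TSS, had 37.0, 31.7 and 28.2 tags after oil and 21.3, 18.9 and 21.4 after tamoxifen. It also lay lower in each tamoxifen library, with a log2 fold change of -0.65 ± 0.37 and an adjusted p of 0.64. Over the 24 other peaks within 20000 bp of the passing peak, log2 fold changes ran from -0.65 to 0.62 and none (0) passed. On the far side of the gene, 26 of 29 peaks more than 3000 bp downstream of the TSS had a log2 fold change above 0, with a median of 0.20. Their summed tags were 3052, 3006 and 2742 after oil and 3478, 3441 and 2981 after tamoxifen, so that tamoxifen replicate 4 lay within the oil range. None (0) of these 29 passed, and since they lie in 1 stretch of chromatin, most of it over 2 long non-coding RNA genes, they are not independent of each other.

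The peak 7585 bp upstream of the Dusp2 TSS (chr2:127328368-127328781) rose. Dusp2 encodes a nuclear phosphatase best known from activated lymphoid and myeloid cells. The peak held 135, 100 and 138 tags in the oil libraries and 160, 212 and 239 in the tamoxifen libraries. The groups did not overlap, and tamoxifen replicate 1 came closest to the oil values. The log2 fold change was 0.71 ± 0.18 (adjusted p = 0.0097). The peak is intergenic in both annotations.

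On the side of this site towards Dusp2 and Astl, tags were higher over a wide stretch, beyond the peaks that the table assigns to Dusp2. All 19 other peaks within 20000 bp had a log2 fold change above 0, from 0.09 to 1.16, as had 49.7% of all peaks. Of the 19, 15 had an unadjusted p under 0.05, against 9.02% of all peaks, and all 15 lie on that side. Peaks on the other side had an unadjusted p of 0.29 to 0.80 by DESeq2. Of the 19 peaks, the 13 assigned to the neighbouring gene Astl, which encodes a protease of the oocyte, had a median of 0.72, and 3 passed. Peaks in 1 stretch of chromatin are not independent of each other. Because the table names the nearest TSS, 2 of the Astl peaks in fact lie over exons of Dusp2. One (chr2:127337687-127338049) held 67.3, 80.0 and 105 tags after oil and 143, 173 and 135 after tamoxifen, a log2 fold change of 0.83 ± 0.20 with an adjusted p of 0.0052. The other (chr2:127337369-127337570) had a log2 fold change of 0.55 ± 0.26 with an adjusted p of 0.46. At Dusp1 and Dusp10 too, 10 and 6 peaks within the GENCODE span of the gene are assigned elsewhere, to Ergic1 and 1700056E22Rik, and none (0) of those passed.

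**Figure D3:**
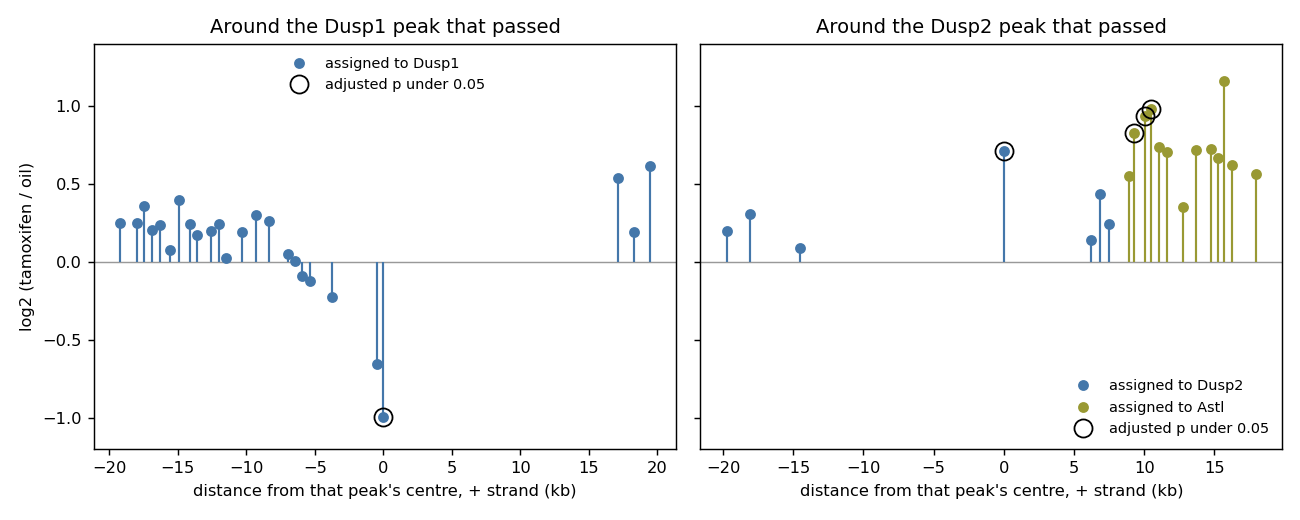
Log2 fold change (tamoxifen over oil) of each peak within 20 kb of the Dusp1 peak that fell and of the Dusp2 peak that rose, by distance from that peak's centre along the + strand, coloured by the gene the table assigns and ringed where the adjusted p was under 0.05. At Dusp1 the lowest values are those of the passing peak and its neighbour (-0.65), whereas all peaks around the Dusp2 peak lie above 0 and the highest belong to Astl by nearest TSS.

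The peak 5753 bp downstream of the Dusp6 TSS (chr10:99268869-99269099) rose. It lies beyond the 3′ end of Dusp6, over an exon of the long non-coding RNA gene Gm34921 and an intron of Gm48089. Tags were 64.5, 41.9 and 52.0 after oil and 91.8, 125 and 72.2 after tamoxifen. The groups were separate by a narrow margin, between oil replicate 1 and tamoxifen replicate 4. The log2 fold change was 0.87 ± 0.25 (adjusted p = 0.043). It is the only distal peak downstream of Dusp6. Far upstream, in and beyond the neighbouring gene Poc1b, 2 of 9 peaks lay lower in every tamoxifen library and 1 lay higher, with adjusted p of 0.61 or more. Of all peaks, 10% lay lower and 11.9% higher in this way. One of the lower peaks, 59134 bp upstream of Dusp6, held 77.8, 85.8 and 77.9 tags after oil and 55.6, 45.7 and 74.0 after tamoxifen.

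At Spry1, which encodes an inhibitor of receptor tyrosine kinase signalling, the peak 35424 bp downstream of the TSS (chr3:37675212-37675530, intergenic) rose. It held 96.0, 139 and 108 tags after oil and 176, 169 and 175 after tamoxifen. The tamoxifen libraries lay close together, and oil replicate 2 was the highest of its group. The log2 fold change was 0.60 ± 0.17 (adjusted p = 0.040). A further 2 of the 11 distal peaks downstream of Spry1 were separate between the groups and higher after tamoxifen, as were 11.9% of all peaks. The Spry1 peak with the most tags, 19913 bp downstream, held 584, 570 and 498 tags after oil and 674, 660 and 628 after tamoxifen (log2 fold change 0.25 ± 0.09, adjusted p = 0.23).

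The peak 72614 bp upstream of the Spred1 TSS (chr2:117048326-117048588, intergenic) rose. Spred1 encodes the Ras inhibitor that recruits neurofibromin to the membrane. The peak held 77.2, 76.5 and 88.7 tags after oil and 126, 125 and 149 after tamoxifen. The groups were well separated, and the log2 fold change was 0.72 ± 0.19 (adjusted p = 0.017). No other peak lay within 20000 bp of it, and it was assigned to Spred1 only as the nearest TSS. Around the Spred1 promoter itself, 4 of 6 peaks were separate and higher after tamoxifen, against 11.9% of all peaks, with none (0) past the threshold. These peaks lie around 1 start site and are not independent of each other.

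**Figure D4:**
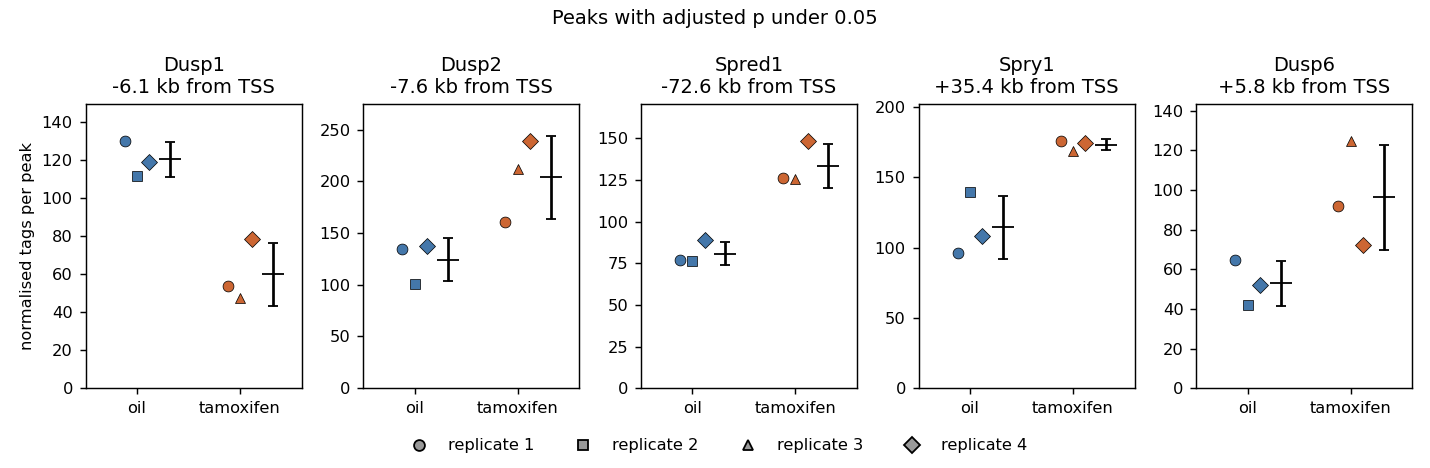
Normalised tags per peak (axes start at 0) in each oil (blue) and tamoxifen (orange) library for the 5 peaks with an adjusted p under 0.05, with the mean and SD of 3 libraries as a bar. The Dusp1 peak falls and the Dusp2, Spred1, Spry1 and Dusp6 peaks rise, without overlap between the groups.

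Without tamoxifen replicate 4, 3 of the 165 peaks passed (1.82%, against 3.71% of all peaks). When each library was left out in turn, the Dusp1 peak passed in 4 of 6 fits (adjusted p = 0.085 without oil replicate 1 and 0.078 without tamoxifen replicate 3). The Dusp2 peak passed only without oil replicate 4 (0.045) and without tamoxifen replicate 1 (0.0029). The Dusp6 peak passed only without tamoxifen replicate 4 (0.0037), and the Spry1 peak only without oil replicate 2 (0.030). The Spred1 peak passed in none (0) of the 6 fits, with adjusted p from 0.064 to 0.22. In 5 of these fits calls fell over the whole table too. Of all peaks, 946, 868 and 992 passed without oil replicates 1, 2 and 4, in place of 2448. Without tamoxifen replicates 1 and 3 the numbers were 1078 and 629. The log2 fold changes of the peaks named here kept their sign in each of the 6 fits.

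Summed over all peaks of a gene, tags at Dusp2 and Spred1 rose, and those of the other 8 genes did not pass the test, in a fit over all genes in which 6% passed. Dusp2 had 1471, 1446 and 1586 normalised tags after oil and 1719, 1794 and 1725 after tamoxifen, a log2 fold change of 0.22 ± 0.06 (adjusted p = 0.019 by DESeq2). Spred1 had 1620, 1578 and 1659 tags after oil and 1890, 1939 and 1772 after tamoxifen (0.21 ± 0.06, adjusted p = 0.025). Both genes had groups that did not overlap, as did 16.4% of all genes in this direction. The sums of the T cell and mature myeloid markers given above were separate in the same direction, the latter not within 3000 bp of a TSS. The part of either in these values was not tested. With 1 library left out, Dusp2 passed in 2 of 6 fits, without oil replicate 4 and without tamoxifen replicate 4, and Spred1 in 1, without tamoxifen replicate 4. Over all genes 634 passed without oil replicate 4 and 2944 without tamoxifen replicate 4, in place of 1186.

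Dusp4, which encodes a nuclear phosphatase of ERK, had a log2 fold change of 0.21 ± 0.10 over its 16 peaks (adjusted p = 0.20). Its sums were 786, 897 and 914 tags after oil and 1124, 1031 and 861 after tamoxifen, with tamoxifen replicate 4 within the oil range. Without that library the adjusted p was 0.0029 and the log2 fold change 0.32, in a fit in which 2944 genes passed in place of 1186. Of its 16 peaks, 14 had a log2 fold change above 0, and none (0) passed.

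Dusp10, the phosphatase of p38 and JNK, was the 1 gene whose sums lay lower in every tamoxifen library. It had 2309, 2208 and 2240 tags after oil and 2073, 2101 and 2176 after tamoxifen, a log2 fold change of -0.09 ± 0.06 with an adjusted p of 0.44. Of all genes, 14.2% had sums that were separate in this direction. Of its 18 peaks, 12 had a log2 fold change below 0, and the 4 that did not overlap between the groups were all lower after tamoxifen. Of all peaks, 10% were separate and lower. The Dusp10 peak with the smallest p, in an intron 14475 bp downstream of the TSS, held 46.9, 55.1 and 44.3 tags after oil and 32.4, 29.5 and 36.8 after tamoxifen (adjusted p = 0.61).

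The sums of the remaining genes overlapped between the groups. Spry1 (log2 fold change 0.12 ± 0.06, adjusted p = 0.27) and Spry2 (0.32 ± 0.17, adjusted p = 0.29) had values above 0. Spry2 had the fewest tags of the 10 genes, 129 to 194 per library after oil and 179 to 224 after tamoxifen, and 3 of its 4 peaks had a log2 fold change above 0. Dusp1 (0.06 ± 0.05), Dusp5 (0.01 ± 0.07), Dusp6 (0.04 ± 0.09) and Spred2 (-0.03 ± 0.06) had values near 0 with adjusted p from 0.60 to 0.95. At Dusp1 the peak that fell was 1 of 40, of which 32 had a log2 fold change above 0. At Spred2, 14 of 28 peaks lay above 0 and 14 below. Its peak with the smallest p, in an intron 48217 bp downstream of the TSS, held 176, 151 and 152 tags after oil and 199, 229 and 188 after tamoxifen (log2 fold change 0.36 ± 0.15, adjusted p = 0.33). At Dusp5 no peak was separate between the groups, and the log2 fold changes ran from -0.32 to 0.23.

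**Figure D5:**
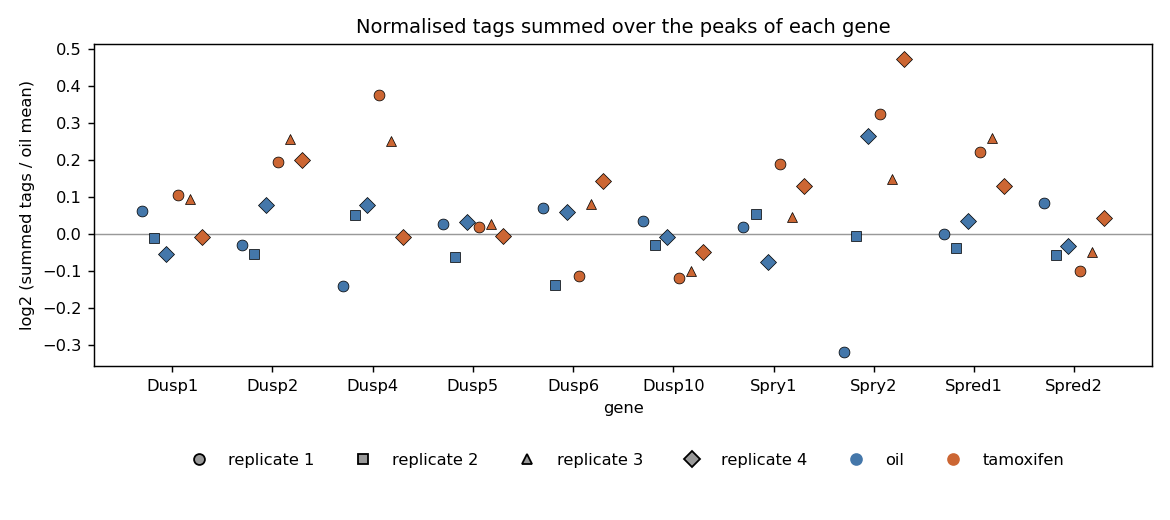
Log2 ratio of normalised tags summed over the peaks of each gene to the oil mean, 1 point per library, oil in blue and tamoxifen in orange. The tamoxifen points lie above the oil points for Dusp2 and Spred1 and below them for Dusp10, and tamoxifen replicate 4 lies within the oil range for Dusp4.

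The rule's limit of 100000 bp fell in a sparse stretch. Just inside it, the Spred2 peak 94633 bp upstream of the TSS averaged 22.7 normalised tags after oil, and just outside it, the Spred2 peak 100854 bp upstream held 40.8, 57.5 and 42.6 tags after oil and 58.5, 49.0 and 46.1 after tamoxifen. In all, 7 further peaks were assigned to Dusp10 or Spred2 beyond the limit, and none (0) passed.

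Motifs were counted in the central 200 bp of each peak, on both strands, on 21 chromosomes, with a panel chosen after the tags had been seen. The letters TGANTCA, which AP-1 factors recognise, were in 6.67% of the 165 windows against 6.61% of all windows of that size. The cyclic AMP element TGACGTCA, part of the known promoter of several immediate early genes, was in 1.21% against 0.573%, and the ETS letters CGGAAGT in 3.03% against 2.02%. The RUNX letters TGTGGT, to which the AML1 part of the fusion protein binds, were in 14.5% against 18.7%. The GATA letters AGATAAG were in 5.45% against 6.13%, the STAT letters TTCNNNGAA in 4.85% against 4.86%, a pair of heat shock half-sites GAANNTTC in 1.82% against 3.92%, and the CArG box, the site of serum response factor, in 0.606% against 0.81%. None of these shares was tested, and those of 5 windows or fewer rest on few peaks.

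In the windows printed above, the Dusp1 and Dusp2 elements, which moved in opposite directions, held the same GATA letters on the same strand (CTTATCT, 146 and 161 bases into the window). The Dusp6 element held RUNX letters, the Spred1 element STAT letters (TTCCAGGAA) and the Spry1 element AP-1 letters (TGAGTCA). A match is a run of letters and not a measured binding site.

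Other genes of the pathway were read from the same fit. In the receptor and ERK cascade, 5 of 261 peaks passed (1.92%, against 1.39% of all peaks), 4 higher and 1 lower. The median log2 fold change over the list was -0.03, and 8.43% of its peaks were separate and higher and 13% separate and lower, against 11.9% and 10% of all peaks. The 4 were all assigned to Ksr1, a scaffold that brings Raf, MEK and ERK together. The one with the smallest p, 11934 bp upstream of the TSS, held 50.2, 52.2 and 52.0 tags after oil and 147, 144 and 93.6 after tamoxifen (log2 fold change 1.30 ± 0.23, adjusted p = 9.5e-06). Summed over its peaks, Ksr1 rose as well (0.25 ± 0.06, adjusted p = 0.0017). The 1 peak that fell was at Sos2, which encodes an exchange factor for Ras, and its tags fell by 0.84 ± 0.25 on the log2 scale (adjusted p = 0.045).

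In the p38 and JNK cascade, 2 of 217 peaks rose (0.922%, against 1.22% of all peaks) and none (0) fell, while 9.22% were separate and higher and 10.6% separate and lower. One was in an intron of Mapk14, which encodes p38 alpha (log2 fold change 1.12 ± 0.24, adjusted p = 0.0012), and the other in Mapkapk3, a kinase that p38 activates (0.57 ± 0.16, adjusted p = 0.036). The summed tags of Map3k5, a kinase upstream of both branches, rose too (0.34 ± 0.11, adjusted p = 0.032), although tamoxifen replicate 4 lay within the oil range. Of 79 peaks at other genes that ERK signalling induces, 1 rose, at the TSS of the ETS factor gene Etv4 (0.65 ± 0.18, adjusted p = 0.025). This is 1.27% of that list, against 1.22% of all peaks, and 11.4% of the list's peaks were separate and higher and 8.86% separate and lower. Among the other phosphatases and Sprouty genes, which make up a list of 10 genes of which 9 had peaks, none (0) of 76 peaks passed in either direction, but the summed tags of 2 genes rose. They are Spry4 (log2 fold change 0.44 ± 0.13, adjusted p = 0.025) and the phosphatase gene Dusp22 (0.60 ± 0.19, adjusted p = 0.035). The median log2 fold change over that list was 0.04, and 13 of its peaks were separate and higher (17.1%, against 11.9% of all peaks) and 4 separate and lower (5.26%, against 10%). Genes whose sums passed were 2 of the 9 in that list. They were 1 of 21 in the receptor and ERK cascade and 1 of 15 in the p38 and JNK cascade. Among the other genes that ERK signalling induces they were 0 of 6. Of all genes, 6% passed.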

How the data were processed

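ATAC-seq libraries of 3 oil and 3 tamoxifen samples were analysed. The authors mapped reads to mm10 with Bowtie2 and used HOMER to call peaks per group, merge both lists and count tags. Values in the deposited table are raw tags, an estimated count in steps of 0.5, with at most 3 tags per position and without normalisation. The merged peaks come from the same libraries that were then compared.

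Tags were rounded to whole numbers and all 175929 peaks were tested in 1 fit with DESeq2 1.42.0 (R 4.3.3, Wald test at defaults, Benjamini-Hochberg adjustment over all peaks). Tags of peaks within 100000 bp of the TSS were also summed per nearest gene and tested over 19781 genes with DESeq2. edgeR 4.0.16 (robust quasi-likelihood test) was an alternative, as were other size factors, a minimum of 10 tags in 3 libraries, separate fits of distal and proximal peaks, a window of 50000 bp, a fold of 1.5, a replicate block, and leaving out each library. The fits were tested on simulated data. Library medians used log2(tags + 1). Intervals are the log2 fold change ± 1.96 SE.

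Peaks named are, for each gene, the one nearest the TSS, the one with the smallest p and each with an adjusted p under 0.05. Further peaks were named after their values had been seen. In each pathway list, peaks past the threshold are named, at most 5 by smallest p. The genes, lists and tests were chosen with earlier results of these data known. Positions were read from GENCODE vM21 and sequences from GRCm38.p6, both mm10. For the numbers shared by libraries, 1 and 4, correlations of deviations from the group means were -0.05 and 0.05. They show no pairing by number, but cannot exclude it with so few libraries.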

Additional observations from a re-analysis of the deposited data

How the results depend on the processing

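Of the 20 named peaks, each of the 5 that passed kept its direction under every alternative run, whereas calls were lost. In place of 5 peaks, the number past an adjusted p of 0.05 was 4 to 6 with edgeR, other size factors, a filter on low tags, separate fits of distal and proximal peaks, or a 50000 bp window, and 0 to 3 when 1 library was left out. Over all peaks 629 to 6529 passed with a library left out, in place of 2448. Peaks that also passed a fold of 2 (0 in the main analysis) numbered 1 with size factors from tags in peaks, 1 with separate distal and proximal fits (the peak upstream of Dusp1, in the setting nearer to the study's own), 0 to 2 with a library left out, and 5 at a fold of 1.5. Genes whose sums passed numbered 1 in place of 2 within 50000 bp, where Spred1 was lost, and 0 to 3 with a library left out. Over all genes 1062 passed within 50000 bp and 459 to 2944 with a library left out, in place of 1186. Peaks whose groups did not overlap numbered 79 without tamoxifen replicate 4 and 44 to 57 with any other library left out, in place of 37. Smaller groups overlap less often, so these counts cannot be set against 37. The share over all peaks is not given for these fits. At the promoters with values near 0 the sign turned, without a call: Dusp5 had 0.012 with separate fits and 0.0044 with size factors from total mapped tags, Dusp6 0.0037 and 0.0022 under the same settings, and with a library left out Dusp5 ran from -0.0487 to 0.0432, Dusp6 from -0.26 to 0.19, Dusp10 from -0.029 to 0.0619 and Spry1 from -0.0039 to 0.13.

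A fit with a replicate block is possible only for the 4 libraries numbered 1 and 4. Under the block 0 of the 165 peaks and 0 of the 10 genes passed, and the Dusp10 promoter had -0.0368. Of all peaks 52 passed in that fit, and of all genes 63, in place of 2448 and 1186. The same 4 libraries were also fitted without the block, a comparison added after the data had been seen. It too gave 0 of the 165 peaks and 0 of the 10 genes, and -0.0372 at the Dusp10 promoter. Of all peaks 172 passed there, and of all genes 175. Of the 165 peaks, 36 had no adjusted p under the block and 40 had none without it. With so few calls among all peaks and genes, these counts of 0 do not set the 165 peaks or the 10 genes apart. The numbers do not show that libraries are paired. With 3 libraries per group and a median of 45 to 57 tags per peak, a peak that missed the threshold is not shown to be unchanged.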
